A study of Homo sapiens with 12 samples.

Results

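The miRNAs described here are mirtron products, miRNAs of capped precursors and the miR-320 family, which are grouped by name as made without the usual first cut by the nuclease Drosha. 9 mature human miRNAs were taken by name from the 2652 in the deposited tables. The miR-320 family gave 4 of them (hsa-miR-320a-3p, hsa-miR-320b, hsa-miR-320c and hsa-miR-320d), precursors with a capped 5′ end other than that of miR-320a gave 2 (hsa-miR-484 and hsa-miR-3615), and mirtrons gave 3 (hsa-miR-877-5p, hsa-miR-1226-3p and hsa-miR-6777-5p). Drosha dependence was not measured. For all miR-320 hairpins, that of miR-320a included, the annotation places no transcript start within 1 kb on the hairpin's strand. The place of miR-320b, miR-320c and miR-320d in the group rests on the family name. The data came from SLAMseq of small RNA in Huh7 cells, a human hepatocellular carcinoma line, and asked how inhibition of splicing alters the making of new miRNAs. There were 12 libraries, 4 in each of 3 conditions, from 4 independent experiments that each held every condition.

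Control cells received DMSO, the solvent, and no 4-thiouridine (4SU). DMSO cells received DMSO together with 500 µM 4SU for 4 h. PlaB cells received 500 µM 4SU for 4 h together with pladienolide B (PlaB), which blocks SF3B1, a protein of the U2 snRNP that recognises the branch point of introns. The dose of PlaB differs between the labels (500 µM) and the study's methods (1 µM). Huh7 is a single cell line, and DMSO replicates 1 and 2 each combine 3 sequencing runs, including a second library preparation. The libraries held 1522210 to 3880241 miRNA reads, with the highest totals in those 2 DMSO replicates. The liver miRNA miR-122-5p was present at 55353 to 105331 CPM (read counts scaled to a common library total), whereas the blood cell miRNAs miR-142-5p and miR-223-3p stayed at or below 3.03 CPM in every library.

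In the canonical route, Drosha and its partner DGCR8 cut a hairpin out of the primary transcript, and Dicer then cuts the hairpin into a duplex from which 1 strand is loaded into Argonaute. A mirtron is a short intron that folds into a hairpin once it has been spliced out and debranched, so that its ends are set by the spliceosome and not by Drosha. Capped precursors such as that of miR-320a begin at the transcription start site, carry the cap of RNA polymerase II, leave the nucleus through exportin-1 and go to Dicer without a Drosha cut. miRNAs of both kinds are known for persisting in cells that lack Drosha or DGCR8. In SLAMseq, 4SU built into new RNA is read as C in place of T, so the share of covered T positions read as C (the T>C conversion rate) measures newly made miRNA, while CPM measures the whole pool, old and new.

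The mature sequences are shown because only a U can carry 4SU and because near-identical sequences share reads. RefSeq (GRCh38.p14) gave a sequence for 8 of the 9 members, all but miR-320a-3p. Each is written 5′ to 3′ with the seed, bases 2 to 8, in capitals.
hsa-miR-320b: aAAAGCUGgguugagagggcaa
hsa-miR-320c: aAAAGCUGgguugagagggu
hsa-miR-320d: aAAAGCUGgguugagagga
hsa-miR-484: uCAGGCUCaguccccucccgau
hsa-miR-3615: uCUCUCGGcuccucgcggcuc
hsa-miR-877-5p: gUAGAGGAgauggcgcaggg
hsa-miR-1226-3p: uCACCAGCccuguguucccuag
hsa-miR-6777-5p: aCGGGGAGucaggcaguggugga
miR-320b, miR-320c and miR-320d had 1 seed in common and the same first 18 bases, and differed only in their last bases. The other 5 members each had a seed that no other tested miRNA with a sequence carried. The number of U bases ran from 2 in miR-877-5p to 6 in miR-3615 and miR-1226-3p, and miR-484 had 5.

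The mark of a mirtron is that the hairpin ends at splice sites, which can be read in the arms themselves. An intron starts with GU and ends with AG, shown here in capitals in the arms that reach an intron end.
hsa-miR-877-5p: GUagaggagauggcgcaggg
hsa-miR-877-3p: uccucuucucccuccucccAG
hsa-miR-1226-5p: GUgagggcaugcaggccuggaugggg
hsa-miR-1226-3p: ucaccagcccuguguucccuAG
hsa-miR-6777-3p: uccacucuccuggcccccAG
In the GENCODE 44 annotation (GRCh38), the miR-877 hairpin (chr6:30584332-30584417, plus strand) was an entire 86-base intron of ABCF1, a gene for a translation initiation factor. The miR-1226 hairpin (chr3:47849555-47849629, plus strand) was likewise an entire 75-base intron of DHX30, which encodes an RNA helicase. The miR-6777 hairpin (chr17:17813480-17813545, minus strand) lay in an 89-base intron of SREBF1, a regulator of lipid synthesis genes, and reached its 3′ splice site but left a 5′ tail of 23 bases. Both arms of miR-877 and miR-1226 therefore touched a splice site, whereas miR-6777-5p began 28 bases inside its intron.

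**Figure D1:**
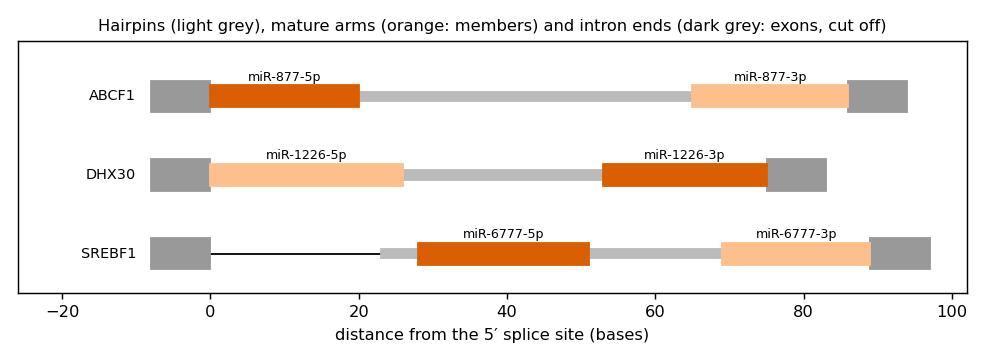
The 3 mirtron hairpins in their host introns, drawn to scale as distance in bases from the 5′ splice site, with mature arms in orange (dark for members) and the flanking exons cut off in dark grey. The hairpins in ABCF1 and DHX30 fill introns of 86 and 75 bases, and the one in SREBF1 starts 23 bases after the 5′ splice site.

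Of the arms of the mirtron hairpins, nearly all reads belonged to the members. miR-877-5p took 99.6% of the reads of its hairpin (849 against 3), miR-1226-3p 97.5% (1209 against 31) and miR-6777-5p 98.4% (4776 against 79). The arm that predominated thus lay at the 5′ splice site in ABCF1 and at the 3′ splice site in DHX30. miR-484 and miR-3615 lay at annotated transcript starts. The miR-484 hairpin (chr16:15643294-15643372, plus strand) was in an untranslated exon of an NDE1 transcript, 27 bases after its start, and 140 bases upstream of the start of MARF1 on the opposite strand. The miR-3615 hairpin (chr17:74748613-74748699, plus strand) began 15 bases before the annotated start of NHERF1 and ran into its first exon, a stretch that is also exonic in the antisense RNA SLC9A3R1-AS1.

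Read levels of the members differed widely. CPM counts reads and is not divided by length, since a read usually spans most of a mature miRNA. The reads of miR-6777-5p covered 1.00 T each, a share of 0.33 of its U positions. Its CPM and its share of hairpin reads may therefore count reads of only a part of it, which was not tested. miR-320a-3p was the most abundant at a mean of 5768 CPM over the 12 libraries, rank 28 of the 537 miRNAs that passed the filter on low counts. It was followed by miR-3615 at 565 CPM, miR-484 at 489 CPM and miR-320b at 325 CPM. Then came miR-6777-5p at 186 CPM, miR-320c at 128 CPM and miR-320d at 109.7 CPM, and the least abundant were miR-1226-3p at 43.8 CPM and miR-877-5p at 32.0 CPM. Neighbours in this order overlapped in their ranges over the 12 libraries, except miR-320a-3p above miR-3615 and miR-320d above miR-1226-3p. All 9 members passed the filter on reads, and 5 exceeded 100 CPM in every library.

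**Figure D2:**
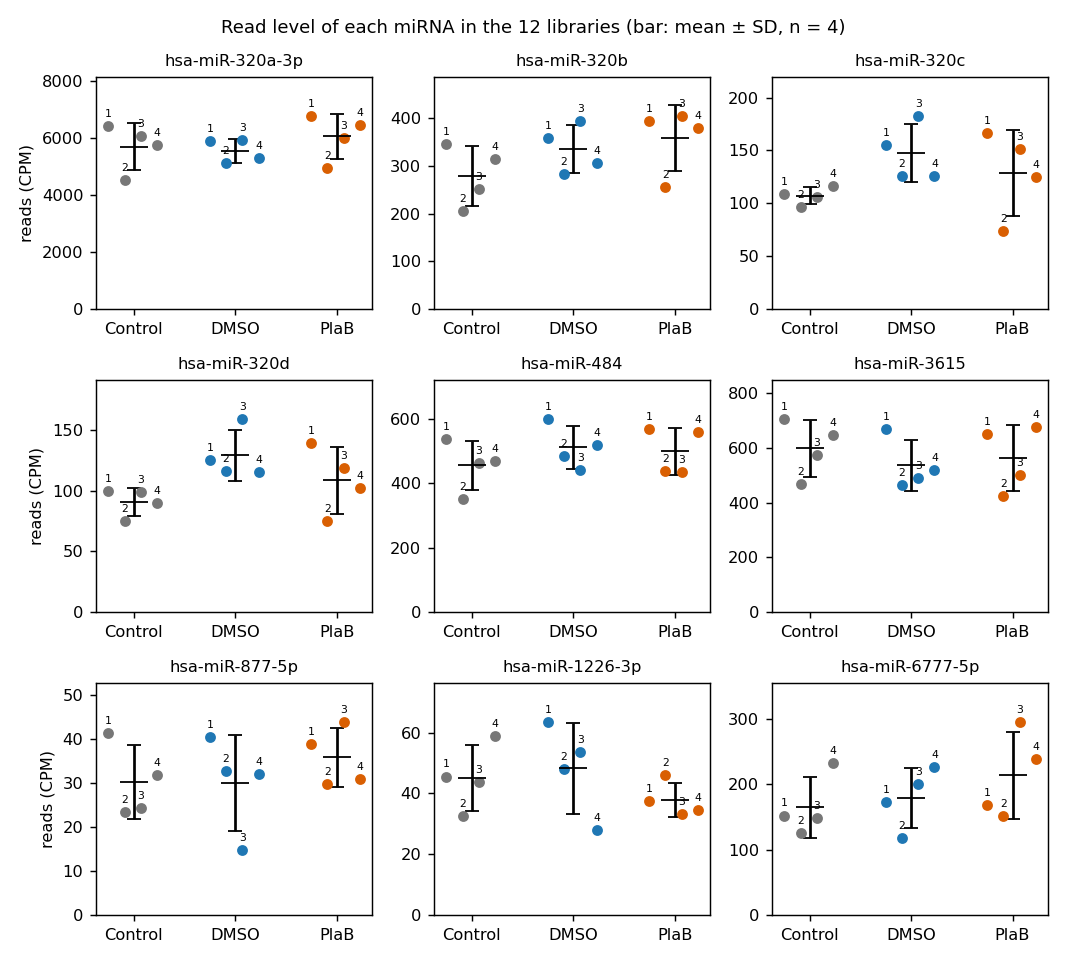
Read level (CPM, linear axes from 0, scales differ) of each member in the 4 Control, DMSO and PlaB libraries, with replicate numbers at the points and bars for mean and SD. Replicate 2 lies below its condition mean in every condition for 7 of the 9 members, and miR-320c and miR-320d are the members whose DMSO libraries all lie above all Control libraries.

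In edgeR's quasi-likelihood test by condition alone, addition of 4SU changed the read level of no member at an adjusted p under 0.05. Adjustment was by Benjamini-Hochberg over 537 miRNAs, where 33 passed (6.15%, 5 higher and 28 lower in DMSO than in Control). With the experiment number as a block, which takes up the pairing of the read levels, 1 member passed, miR-320d, as given below. For the dominant family member, miR-320a-3p, the levels in replicates 1 to 4 were 6425, 4515, 6074 and 5755 CPM in Control. They were 5890.1, 5107, 5944 and 5297 CPM in DMSO. The 4 DMSO values lay within the Control range, and the log2 fold change was −0.03 (SE 0.12, adjusted p = 0.957). For the 3 minor family members the means were higher with 4SU, as follows.

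miR-320d, the shortest of the 4 family members chosen, stood at 99.5, 75.2, 99.4 and 89.6 CPM in Control and at 126, 117, 159.6 and 115 CPM in DMSO. All 4 DMSO libraries were above all 4 Control libraries. The log2 fold change was 0.52 (SE 0.19, 95% interval 0.11 to 0.93), which missed the threshold (adjusted p = 0.164), but with the experiment number as a block it was 0.51 and passed (edgeR adjusted p = 0.0352, where 60 miRNAs or 11.2% did). miR-320c stood at 109, 96.9, 106 and 116 CPM in Control and at 155, 126, 183 and 125 CPM in DMSO, again without overlap. On the log2 scale it was 0.47 higher in DMSO (SE 0.21, adjusted p = 0.277, and 0.103 with the block). Groups that separate in this direction were found for 23 of the 537 miRNAs (4.28%), against 2 of the 9 members. These 2 have the same first 18 bases and mostly reads that also mapped elsewhere, so they are not independent observations. For miR-320b the means were 279.9 ± 63.1 (SD, n = 4) CPM in Control and 336 ± 50.3 CPM in DMSO, with overlap and a log2 fold change of 0.27 (adjusted p = 0.537).

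These 3 were also the members whose reads were shared between places in the genome. Of the reads assigned to miR-320c and miR-320d, 90.5% and 91.6% also mapped elsewhere, as did 56.0% of those of miR-320b, but only 1.21% of those of miR-320a-3p. The share of such reads in the differences between conditions was not tested. Within the family, miR-320a-3p made up 92.3% ± 0.55 (SD, n = 4) of the summed CPM in Control, 90.1% ± 0.80 in DMSO and 91.1% ± 1.10 in PlaB. miR-320d made up 1.43 to 1.54% in Control, 1.92 to 2.39% in DMSO and 1.40 to 1.87% in PlaB. Over the 12 libraries the log2 CPM of miR-320c and miR-320d had a Pearson correlation of 0.94, against 0.56 for each of them with miR-320a-3p.

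Outside the family, 4SU left small differences. miR-484 stood at 539, 353, 464 and 468 CPM in Control and at 601, 486, 441 and 520.2 CPM in DMSO, overlapping groups that differed by 0.17 on the log2 scale (adjusted p = 0.624). miR-3615 was at 706, 466, 572 and 646 CPM in Control and at 670.3, 462, 491 and 519 CPM in DMSO. It was the only member lower in DMSO in all 4 experiments, a change of −0.16 on the log2 scale (SE 0.16, adjusted p = 0.700). For the 3 mirtron products the log2 fold changes were −0.0046 (miR-877-5p), 0.10 (miR-1226-3p) and 0.14 (miR-6777-5p), each with an adjusted p of 0.908 or more.

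With 4SU in both conditions, the read level of no member differed between PlaB and DMSO at an adjusted p under 0.05. In this comparison 0 of 537 miRNAs (0%) passed at an adjusted p under 0.05 in edgeR, 31 had an unadjusted p under 0.05, 7 passed with the block and 6 passed in DESeq2, none of them a member. Mirtron products, which need splicing, stood in PlaB libraries as follows. miR-6777-5p was at 173, 118, 201 and 226 CPM in DMSO and at 168, 151, 296 and 239 CPM in PlaB, a difference of 0.29 on the log2 scale (SE 0.25, 95% interval −0.25 to 0.83). miR-877-5p was at 40.5, 32.7, 14.8 and 32.0 CPM in DMSO and at 38.8, 29.8, 43.9 and 30.9 CPM in PlaB, which is 0.31 on the log2 scale (SE 0.29, 95% interval −0.31 to 0.93). The groups overlapped for both, and DMSO replicate 3 was the low library of miR-877-5p.

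miR-1226-3p was at 63.7, 47.9, 53.7 and 27.9 CPM in DMSO and at 37.4, 46.0, 33.3 and 34.5 CPM in PlaB. DMSO replicate 4 was below every PlaB library while the other 3 were above, and the log2 fold change was −0.29 (SE 0.26, 95% interval −0.84 to 0.25). In PlaB, miR-320a-3p stood at 6778, 4953, 6013 and 6468 CPM, a log2 fold change of 0.17 from DMSO (95% interval −0.08 to 0.42). With the block the change of miR-320a-3p was 0.16 (95% interval 0.006 to 0.32, edgeR adjusted p = 0.534). For the other 5 members the log2 fold change from DMSO ranged from −0.21 in miR-320d to 0.14 in miR-320b. By condition alone, the edgeR adjusted p of the 9 members was 0.947 or more. Mature miRNAs are known to be stable, and CPM counts old and new molecules alike. In extracts of whole cultures, fewer cells that hold a miRNA and fewer copies in each cell cannot be told apart.

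Members also varied by experiment. Replicate 2 was below the mean of its condition in all 3 conditions for 7 of the 9 members, the exceptions being miR-877-5p and miR-1226-3p, and replicate 1 was above it in all 3 for 6. miR-6777-5p was 0.45 lower than the condition means on the log2 scale in replicate 2 and 0.37 higher in replicate 4, as averages over the conditions.

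By likeness of log2 CPM over the 12 libraries (Pearson r, 157 other miRNAs above 100 CPM in every library), the closest to miR-320a-3p were miR-425-5p (0.81), miR-130b-3p (0.80) and miR-320b (0.79). miR-320b was closest to miR-130b-3p (0.87), miR-320a-3p (0.79) and miR-342-3p (0.79). miR-484 was closest to miR-197-3p (0.88), miR-92a-3p (0.81) and let-7g-5p (0.81). miR-3615 was closest to miR-423-3p (0.92), miR-125b-5p (0.90) and miR-345-5p (0.86), and miR-6777-5p to miR-103a-3p (0.77), miR-26a-5p (0.76) and miR-151a-5p (0.70). These points share libraries and their experiment, so the values are descriptions.

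Conversions were counted against the covered T positions. The Wilson intervals and the limits for a count of 0 below cover counting error only, and the reads carry no molecular identifiers. Intervals of log2 fold changes come from edgeR and include the spread between libraries. Just 3 of the 9 members held the 10 conversions over the 12 libraries needed for the test, which ran on 238 miRNAs. miR-3615 held 148 conversions, miR-484 held 43 and miR-320a-3p held 42. miR-1226-3p held 5, miR-877-5p held 2, and miR-320b, miR-320c, miR-320d and miR-6777-5p held 0.

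Among the 3 testable members, 4SU raised the conversion rate of miR-3615 and miR-320a-3p, a count to be read against 194 of 238 miRNAs (81.5%) that passed, 193 of them upwards. miR-3615 held 3, 2, 4 and 2 conversions in Control replicates 1 to 4, rates of 0.0428, 0.0300, 0.0646 and 0.0218%. In DMSO it held 40, 24, 16 and 7, rates of 0.258, 0.266, 0.270 and 0.115%. Every DMSO library was above every Control library, and DMSO replicate 4 was the lowest of its group.

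The log2 fold change of miR-3615 was 2.51 (SE 0.71, edgeR adjusted p = 0.00135), and the exact two-sided permutation test on the library rates gave p = 0.0286, the smallest that 4 against 4 libraries allow. 6 such permutation tests were run. miR-320a-3p, the more abundant of the pair, held 1, 0, 0 and 1 conversions in Control, rates of 0.00311, 0, 0 and 0.00243%. In DMSO it held 17, 4, 2 and 6, rates of 0.0248, 0.00797, 0.00553 and 0.0192%. The groups did not overlap, with DMSO replicates 1 and 4 above 2 and 3.

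For miR-320a-3p, the rise by edgeR was 3.08 on the log2 scale (SE 1.24, adjusted p = 0.0215), with an exact permutation p of 0.0286. The call was lost without DMSO replicate 1 (adjusted p = 0.0754), without Control replicate 3 (0.0575) and without DMSO replicates 1 and 2 together (0.110). The level of labelling was low: the pooled DMSO rate of 0.0156% (95% Wilson interval 0.0108 to 0.0224%) was the fifth lowest of the 238 tested miRNAs, whose median was 0.337%.

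miR-484 held 0, 5, 0 and 0 conversions in Control, so that replicate 2 carried all of the background at 0.127%. In DMSO it held 9, 2, 2 and 10, rates of 0.0821, 0.0268, 0.0474 and 0.209%. The groups overlapped because of that 1 Control library, and the log2 fold change of 1.50 (SE 1.13) missed the threshold (edgeR adjusted p = 0.201, exact permutation p = 0.286). Without Control replicate 2 it was 5.26 and passed (edgeR adjusted p = 0.0115). Its pooled DMSO rate of 0.0839% (95% Wilson interval 0.0559 to 0.126%) ranked 30 from the lowest of the 238.

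**Figure D3:**
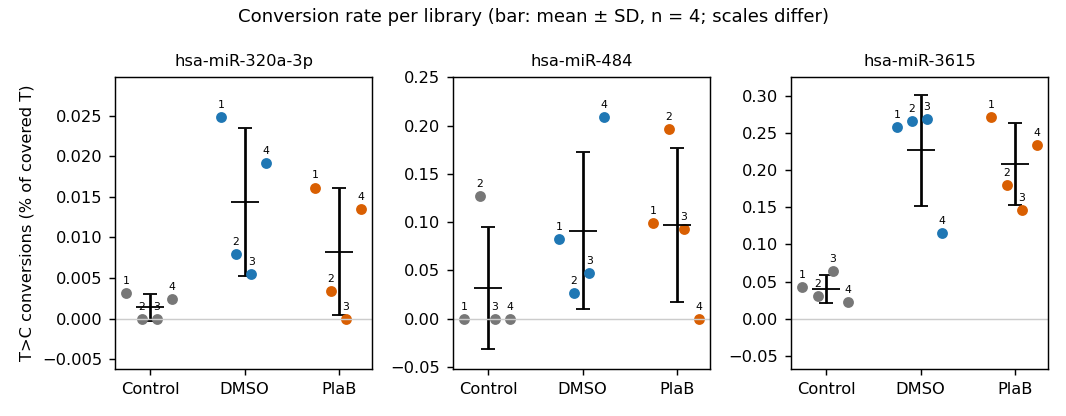
T>C conversions as a percentage of covered T positions in each library for the 3 members with at least 10 conversions (scales differ, bars are mean and SD, n = 4). DMSO lies above Control without overlap for miR-320a-3p and miR-3615, whereas Control replicate 2 of miR-484 reaches 0.127%, and DMSO and PlaB overlap in all panels.

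PlaB changed the conversion rate of none of the 3 at an adjusted p under 0.05 in edgeR, where 86 of 238 miRNAs (36.1%, 85 lower and 1 higher) passed and the median log2 fold change of all tested was −1.23. By unadjusted p also, 0 of the 3 members and 113 of the 238 miRNAs were under 0.05. For miR-3615, PlaB libraries held 16, 9, 7 and 18 conversions, rates of 0.271, 0.181, 0.147 and 0.234%. These overlapped the DMSO libraries, with PlaB replicate 1 just above the highest of them (0.270%) and PlaB below DMSO in 2 of 4 experiments. The log2 fold change was −0.13 (SE 0.62, 95% interval −1.35 to 1.10, adjusted p = 0.906), and the exact permutation p was 0.771.

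miR-484 held 4, 8, 3 and 0 conversions in PlaB, rates of 0.0987, 0.196, 0.0933 and 0%. The order turned between experiments, since replicate 4 was the highest DMSO library and the lowest PlaB library. The log2 fold change was 0.09 (SE 1.02, 95% interval −1.94 to 2.13, adjusted p = 0.959, exact permutation p = 0.914). miR-320a-3p held 5, 1, 0 and 5 conversions in PlaB, rates of 0.0162, 0.00340, 0 and 0.0135%. PlaB lay below DMSO in all 4 experiments, but the groups overlapped, and the log2 fold change was −0.76 (SE 1.04, 95% interval −2.83 to 1.30, adjusted p = 0.604, exact permutation p = 0.343).

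The interval of each of the 3 members held both 0 and the median of all tested miRNAs. At this depth the rates therefore could not be told from no change, nor from the typical fall. By point estimate, 78.2% of the tested miRNAs had a lower log2 fold change than miR-3615, 84.5% than miR-484 and 62.6% than miR-320a-3p. Against Control, the PlaB libraries of miR-3615 remained labelled, with a log2 fold change of 2.38 (SE 0.72, edgeR adjusted p = 0.00402), where 127 of 238 miRNAs (53.4%) passed. For miR-320a-3p it was 2.32 (adjusted p = 0.121) and for miR-484 1.59 (adjusted p = 0.242, and 0.0162 without Control replicate 2), neither past the threshold.

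**Figure D4:**
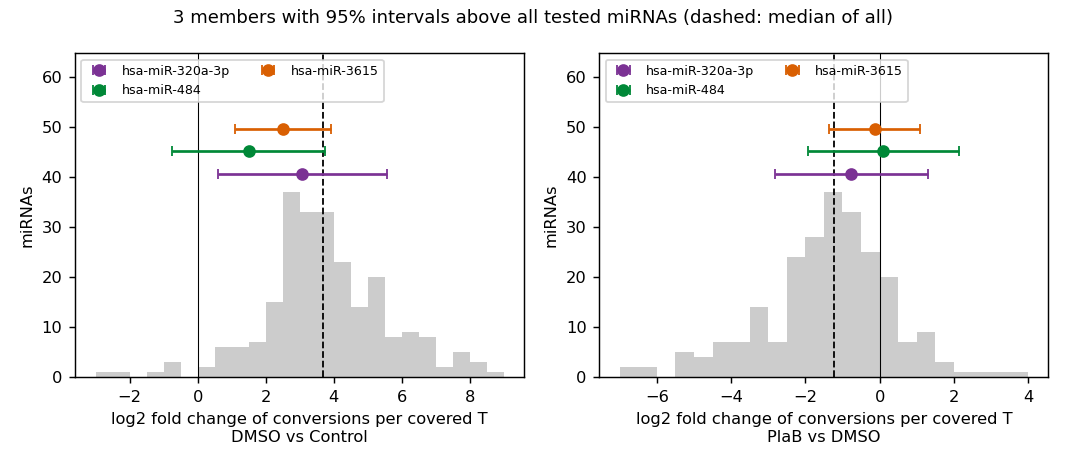
Log2 fold change of conversions per covered T for the 3 testable members with 95% intervals, drawn above the histogram of all 238 tested miRNAs (vertical axis, number of miRNAs; dashed line, their median). For DMSO against Control the median is 3.67, and for PlaB against DMSO it is −1.23 with all 3 member intervals spanning it and 0.

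Pooling the conversions within each class gave rates that differed between the classes, described here without a test. miR-484 and miR-3615 together held 16 conversions in 46487 covered T in Control (0.0344%, 95% Wilson interval 0.0212 to 0.0559%). In DMSO they held 110 in 63945 (0.172%, 0.143 to 0.207%), and in PlaB 65 in 39654 (0.164%, 0.129 to 0.209%). Per library the pooled rate was 0.157 to 0.185% in DMSO and 0.125 to 0.201% in PlaB, so the DMSO range lay inside that of PlaB. After subtraction of the Control rate, PlaB amounted to 0.94 of DMSO in this class, with 0.88 for miR-3615 and 1.15 for miR-484. The ratio of miR-484 turned on single libraries, at 2.20 without DMSO replicate 4, 1.88 without PlaB replicate 4 and 0.52 without PlaB replicate 2. The median rate over the 238 tested miRNAs was 0.337% in DMSO and 0.109% in PlaB.

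The miR-320 family held 2 conversions in 150657 covered T in Control (0.00133%), 29 in 206719 in DMSO (0.0140%, 95% Wilson interval 0.00977 to 0.0201%) and 11 in 138561 in PlaB (0.00794%, 0.00443 to 0.0142%). All 42 belonged to miR-320a-3p, and PlaB amounted to 0.52 of DMSO after subtraction of Control. DMSO replicate 1 held 17 of the 29 DMSO conversions, and without it the ratio was 0.84. miR-320b had 11178 covered T in DMSO, and its 0 conversions allow a rate of up to 0.0268%. Together miR-320b, miR-320c and miR-320d held 0 of 20484 covered T in DMSO, which allows up to 0.0146%, inside the Wilson interval of miR-320a-3p (0.0108 to 0.0224%). At the DMSO rate of miR-320a-3p, the covered T of the 3 together would give 3.19 conversions, 1.74 of them from miR-320b. This number and the joint limit hold only if converted reads of all 3 were kept and counted. The authors' minimum identity to the genome leaves short reads fewer mismatches, and miR-320d held 61 flagged reads but 0 conversions on its T positions. The part of that filter in these counts of 0 was not tested.

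The mirtron products held 7 conversions in 6012 covered T in DMSO (0.116%, 95% Wilson interval 0.0564 to 0.240%) and 0 in Control and PlaB. miR-1226-3p gave 4 of the 7 in DMSO replicate 1 and 1 in replicate 2, and miR-877-5p gave 2 in replicate 2. Both are the deeper libraries that combine 3 runs, and DMSO replicates 3 and 4 held 0 of 2019 covered T, which allows up to 0.149%. In PlaB, 0 of 3575 covered T allows up to 0.0839%, and in Control 0 of 4103 allows up to 0.0731%. The limit in PlaB lay inside the Wilson interval of DMSO, but such an overlap is not a test, and a difference between DMSO and PlaB was not tested. Without DMSO replicates 1 and 2, neither condition held a conversion. Library depth and repeat preparation moved with these counts, and their part was not tested.

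miR-6777-5p and miR-320d showed limits of the conversion count itself. miR-6777-5p has U at positions 9, 17 and 20, counted from its 5′ end, but its reads covered 1.00 T each, a share of 0.33 of its U positions. The median share over 480 miRNAs was 0.99, and just 2 of them, miR-6777-5p included, were under 0.4. miR-320d held 61 reads flagged as carrying a T>C conversion (9 in Control, 33 in DMSO and 19 in PlaB) but 0 conversions on its own T positions, and its rank by that excess was 5 of 537. miR-320c, which ends in the last of its 4 U bases, had 3.10 covered T per read. Of the miRNAs of 20 bases or fewer, 43.8% (14 of 32) held any conversion, against 73.3% (329 of 449) of the longer ones. miR-320c, miR-320d and miR-877-5p belong to the short group, and the part of length in their low counts was not tested.

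The genes of the miR-320 family had no annotated transcript start on their own strand within 1 kb of the hairpin. The miR-320a hairpin (chr8:22244962-22245043, minus strand) began 90 bases from the start of POLR3D, a gene for an RNA polymerase III subunit transcribed the other way. The miR-320b-2 hairpin (chr1:224257004-224257141, minus strand) lay within an intron of NVL on the same strand. Both miR-320c hairpins lay in introns on the opposite strand, of ABHD3 (chr18:21683510-21683597) and of OSBPL1A (chr18:24321686-24321735). An annotated lncRNA on the own strand of the hairpin in ABHD3 started 9882 bases upstream and came within 1 kb of it. No annotated transcript came within 1 kb of miR-320b-1 (chr1:116671749-116671827), miR-320d-1 (chr13:40727828-40727875) or miR-320d-2 (chrX:140926172-140926219). Since each of miR-320b, miR-320c and miR-320d comes from 2 loci, their values are sums over both.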

How the data were processed

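SLAMseq libraries of Huh7 small RNA were analysed from the deposited tables, 1 per library and 12 in all. The authors adapted the SLAM-DUNK pipeline, with mature miRNAs of miRBase as features on GRCh38 and Trim Galore (named in the submitters' processing notes) for adapters. They kept reads that map to more than 1 place, masked positions called as polymorphic and required a minimum identity to the genome, which leaves a short read fewer mismatches. Per the file headers each table holds counts of reads, conversions and covered T per miRNA, with deposited CPM (scaled to the miRNA reads of each library) and the conversion rate as a fraction computed by the authors from those counts. Rates are printed as percent.

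Members, gene lists and classes were chosen with earlier results of these data known. Read counts were fitted in edgeR 4.0.16 (R 4.3.3) with TMM factors (0.934 to 1.08) over all 12 libraries by condition, after filterByExpr (537 of 2652 miRNAs). Conversion counts were fitted with log covered T as offset, in 238 miRNAs with at least 10 conversions. Adjusted p-values are Benjamini-Hochberg over all miRNAs tested, and single members were also tested by exact permutation (scipy 1.17.1). Both fits were run on simulated counts with known changes, larger than those of the members between PlaB and DMSO. That run does not show how well smaller changes at few conversions are found. A count of 0 was given the limit of 3 counts. Named miRNAs were the members, their other arms, miR-320e, members of related lists above 10 mean CPM, the 3 most correlated with each member above 100 CPM, and markers of liver and blood cells. miR-1228-3p lies outside this rule and was chosen after its values were seen. Replicate numbers mark the 4 independent experiments. Deviations from condition means in log2 CPM correlated between libraries of 1 number in all 12 pairs (lowest 0.21, median 0.56), so the numbers pair the read levels, whereas for conversion rates the lowest was −0.13 and the median −0.01. Alternatives covered DESeq2 1.42.0, RLE factors, filters, the block, the libraries in the fit and each library left out.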

Additional observations from a re-analysis of the deposited data

Results flagged for a closer look

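In 36 groups of 4 libraries (CPM of the 9 members and conversion rates of 3), 2 held a library far from the other 3, where chance gives about 1.8. For miR-484, Control replicate 2 had a conversion rate of 0.127%, and the other 3 Control libraries had 0. For miR-3615, DMSO replicate 4 had a conversion rate of 0.115%, and the other 3 DMSO libraries had 0.258 to 0.270%.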

How the results depend on the processing

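The conversion calls of miR-3615 against Control held in all 19 alternatives for DMSO (log2 fold change 2.25 to 2.82) and for PlaB (2.16 to 2.69), and that of miR-320a-3p for DMSO in 16 of 19 (2.64 to 3.59). No member passed for PlaB against DMSO under any alternative, in reads or conversions. miR-320d passed in reads, DMSO against Control, in 1 of 18 alternatives, the replicate block. With the replicate block, 60 miRNAs passed in reads when DMSO was set against Control and 7 when PlaB was set against DMSO. In conversions 163 passed with the block between DMSO and Control, 60 between PlaB and DMSO and 100 between PlaB and Control, and the 3 member calls against Control were kept. In reads, DMSO against Control, 8 of the miRNAs above 100 CPM in every library passed (fewer were tested), and 17 passed without DMSO replicates 1 and 2. With each library left out the count was 21 to 42, the low end without Control replicate 3. In reads, PlaB against DMSO, 6 passed in DESeq2, 5 with no filter and 1 above 100 CPM. In conversions, PlaB against DMSO, 49 passed without DMSO replicates 1 and 2.

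The class rates moved by less than their counting intervals when library rates were averaged. Leaving out each library in turn was an alternative chosen after seeing the data. The PlaB to DMSO ratio then ran from 0.35 to 0.84 in the miR-320 family and from 0.85 to 1.02 in the capped class. It ran from 0.52 to 2.20 in miR-484 and from 0.78 to 0.97 in miR-3615. The mirtron ratio of 0 could not move, because no Control or PlaB library held a mirtron conversion, so it says nothing about stability. Without miR-320a-3p the family rate was 0 in each condition, and without miR-3615 the capped class stood at 0.0839% in DMSO and 0.0920% in PlaB, which are the values of miR-484.

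Uncalled values changed sign as follows (log2 fold change, the cause was not tested). In reads, DMSO against Control, miR-877-5p was at 0.0057 in DESeq2, 0.013 with no filter and 0.0050 in the 8 libraries alone, and −0.14 to 0.20 with each library left out. Without DMSO replicates 1 and 2, miR-320a-3p was at 0.035 and miR-1226-3p at −0.10. With each library left out, miR-320a-3p ran from −0.11 to 0.030, miR-1226-3p from −0.036 to 0.27 and miR-6777-5p from −0.022 to 0.35. In reads, PlaB against DMSO, miR-484 was at −0.044 with no filter, −0.034 above 100 CPM and −8.48e-06 in the 8 libraries alone, and miR-6777-5p at −0.0066 without DMSO replicates 1 and 2. With each library left out, miR-484 ran from −0.043 to 0.076 and miR-320c from −0.29 to 0.027. In conversions, PlaB against DMSO, miR-484 was at −0.35 with the block and −0.41 without DMSO replicates 1 and 2, where miR-3615 was at 0.12. With each library left out, miR-484 ran from −0.53 to 0.82 and miR-3615 from −0.33 to 0.0015.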

Other observations

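Further miRNAs listed by name as mirtrons, a fixed list of 8, were scarce in these cells. Whether each of them needs splicing or Drosha was not measured. The list held miR-1224, miR-1225, miR-1227, miR-1228, miR-1229, miR-1236, miR-1237 and miR-1238. Of their 16 arms in the files, 9 had any read, 1 passed the filter on low counts and none exceeded a mean of 10 CPM. That arm was miR-1228-3p, chosen after its values were seen because it was the 1 that passed, at 3.00 to 9.85 CPM and 0 conversions. Its log2 fold change in reads was 0.75 for DMSO against Control (SE 0.40, edgeR adjusted p = 0.418) and 0.05 for PlaB against DMSO (adjusted p = 0.999). The 16 arms held 1 conversion in all.

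A fixed list of miRNAs cut from small nucleolar RNAs, another route without Drosha, gave 7 arms in the files, of which 1 passed the filter. miR-664a-3p stood at 23.5 ± 7.88 (SD, n = 4) CPM in Control, 32.1 ± 3.70 in DMSO and 29.3 ± 7.15 in PlaB, and neither difference in reads passed (edgeR adjusted p = 0.512 and 0.986). All 5 conversions of the list were its own, in 2833 covered T in DMSO. It held 0 of 1526 covered T in Control and 0 of 1597 in PlaB. These were too few conversions for the test, so a difference between conditions was not tested. The remaining family member miR-320e held 8.88 CPM on average, 0 conversions on its T positions and 18 reads flagged with a T>C conversion, the same mismatch of the 2 counts as in miR-320d.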
